A study of Mus musculus with 30 samples.

Results

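The 83 genes described here encode potassium channel subunits or, in 3 cases, noncoding RNAs named after them. They are every annotated gene whose symbol is Kcn followed by a letter code and a number. This choice was made with earlier results of these data known, and the genes are 83 of the 17782 measured. By the kind of subunit they are 30 voltage-gated pores, 15 inward rectifiers, 12 two-pore channels, 8 channels activated by calcium or sodium, 15 auxiliary subunits and 3 noncoding RNAs. The arrays came from 15 mice at 6 weeks of age, and every animal gave 1 kidney array and 1 skeletal muscle array. Each tissue had 4 arrays of mutants given the trap, 4 of mutants given PBS, 4 of wild-type mice given the trap and 3 of wild-type mice given PBS. The mutants, named Kif3aΔTub and carrying the genotype label Kif3aKSPCre, have the kinesin-2 motor gene Kif3a deleted by a Cre recombinase that is active in kidney tubule epithelium, so muscle carries no deletion by design. The trap is sActRIIB-Fc, a soluble activin receptor IIB fused to an antibody tail that binds activins and related ligands, given as 2 weekly intraperitoneal doses of 10 mg/kg. The design asked how kidney disease in the mutants was reflected in muscle and what blocking these ligands changed.

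Potassium channels let potassium leave or enter cells along its gradient and so set the membrane potential. In the kidney, inward rectifiers and two-pore channels of the tubule recycle or secrete potassium and hold the voltage that drives salt transport. In skeletal muscle, inward rectifiers and voltage-gated channels set the resting potential and end the action potential, and channels gated by ATP tie excitability to energy state. Many pores work only in complexes with auxiliary subunits or with silent relatives that modify them.

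All values are the authors' normalized log2 intensities, changes are differences of log2 means with the standard error that limma gave, and a gene was called when its adjusted p over all 17782 genes was under 0.05. Array medians were 6.09 to 6.24 in kidney and 5.94 to 6.06 in muscle, and the labels give no batch. Every kidney median was higher in mutants (6.1929 to 6.2402) than in wild type (6.0871 to 6.1308). Untreated mutant muscles had lower ones (5.9413 to 5.9955) than untreated wild-type muscles (6.0178 to 6.0304). The 3′ minus 5′ actin signal also separated untreated kidneys (0.761 to 1.369 in mutants, 1.401 to 1.499 in wild type). With it as a covariate the Kcnj11 call under PBS ended, and those of Kcnj15, Kcnj16, Kcnk5, Kcnk1, Kcnq1 and Kcne1 held. Untreated mutant kidneys had a Kif3a signal of 7.33 ± 0.12, and wild-type kidneys one of 7.83 ± 0.07 (SD, n = 4 and 3, -0.50 ± 0.15, adjusted p = 0.011), while with the trap they had 7.63 ± 0.30 and 7.65 ± 0.22 (n = 4 each, adjusted p = 0.905), so Kif3a did not separate the genotypes there. The tissue labels matched their markers, as the summed linear signal of 6 fast fibre genes was 101376 or more on every muscle array and 127.0 or less on every kidney array. In untreated mutant kidneys 8 of 8 proximal tubule markers were lower (summed signal 6168 to 18943, against 47319 to 47892 in wild type), as were 5 of 6 markers of the loop of Henle and distal convoluted tubule (9974 to 16567 against 30365 to 33834). In the same kidneys 5 of 5 principal cell markers (7085 to 17012 against 2669 to 3208), 9 of 9 macrophage markers (13777 to 19667 against 1556 to 1842) and 8 of 9 fibroblast and pericyte markers (15630 to 23269 against 4396 to 5614) were higher. The part of these shifts in the changes below was not tested, and in whole tissue fewer cells of a type and less RNA per cell cannot be told apart.

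The median level of all genes was 6.82 in kidney and 6.47 in muscle. In kidney 10 members lay above it and in muscle 15, of which Kcnj11 and Kcne4 were above it in both tissues, and 60 members lay above it in neither. The kidney member just above the line was Kcne4 at 6.92 and the one just below it Kcnj8 at 6.62, and in muscle these were Kcnn4 at 6.54 and Kcnq1ot1 at 6.46. Members above the line are described first, since low signals on an array cannot be told from background by these files.

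The levels in untreated wild-type mice show which subunits each tissue carries. Since 21 of the 23 members above the median in a tissue were above it in only 1 of the tissues, a gap between the tissues is built into that choice, and the values are given as a description with no test. The widest gap was that of Kcnj15, an inward rectifier of the basolateral membrane of the proximal tubule, with a mean of 12.10 in kidney and 4.15 in muscle. Its relative Kcnj16 was at 10.79 in kidney and 4.90 in muscle, and the secretory channel Kcnj1 at 10.43 in kidney and 4.91 in muscle. The two-pore channels Kcnk1 and Kcnk5 had kidney means of 9.96 and 9.38, with 5.83 and 4.91 in muscle. In the other direction Kcnj12, an inward rectifier of striated muscle, had means of 5.11 in kidney and 9.05 in muscle. The fast voltage-gated pores Kcnc4 and Kcnc1, the silent subunit Kcng4 and the muscarine-sensitive channel Kcnq5 were likewise dim in kidney, at 4.24 to 5.26, with 7.61 to 8.97 in muscle. The members above the median in both tissues were Kcnj11, the pore of the ATP-gated channel, which was lower in kidney (-0.67 ± 0.19), and the auxiliary subunit Kcne4, with means of 6.93 in kidney and 6.60 in muscle.

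**Figure D1:**
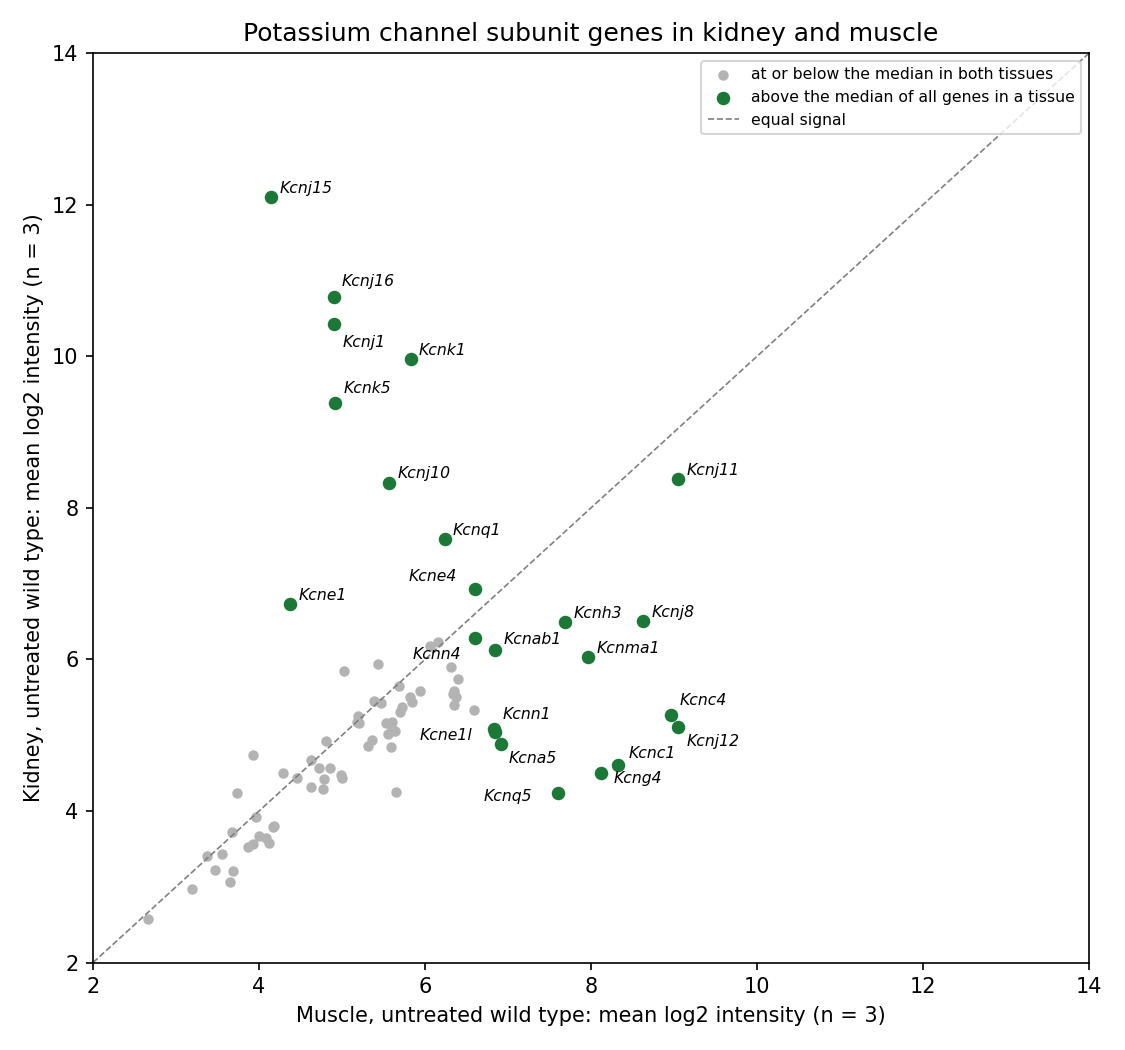
Mean log2 intensity of each of the 83 members in untreated wild-type kidney (vertical axis) and muscle (horizontal axis), 3 arrays per tissue, each gene by 1 probe set common to both tissues. Green points are the 23 members above the median of all genes in a tissue, grey points the other 60, and the dashed line marks equal signal. Kcnj15, Kcnj16, Kcnj1, Kcnk5 and Kcnk1 lie far above the line and Kcnj12, Kcnc1, Kcnc4, Kcng4 and Kcnq5 far below it.

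In untreated mutant kidneys the inward rectifier Kcnj15 and the two-pore channel Kcnk5 fell, while Kcnq1 and Kcne1, the pair that makes the slow delayed rectifier current, rose. Kcnj15, Kcnk5, Kcnj16 and Kcnj11 fell, with changes of -2.21 to -0.58, while Kcnq1, Kcnk1 and Kcne1 rose by 1.01 to 1.71. That was 7 of the 10 members above the median (3 higher and 4 lower), beside 64% of all genes above the median (35.4% higher and 28.7% lower), so the share of members called was close to the background. Kcne1 had a mean of 6.73 in untreated wild type, under the kidney median of 6.82. Its place among the 10 thus rests in part on the untreated mutants, where it was highest. The same limit holds for the counts below that include it, those for the trap in mutants and for the interaction. The arrays of mutants and wild type did not overlap for 9 of the 10, beside 72.2% of genes above the median. The members' median size of change was 0.86, against 0.47 over all genes above the median.

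Among the inward rectifiers, Kcnj15 was at 9.40, 10.52, 9.78 and 9.86 in untreated mutant kidneys, against 11.97, 12.15 and 12.18 in untreated wild type. Every mutant array was below every wild-type array by more than 1 log2 unit (-2.21 ± 0.25, adjusted p = 2.58e-06), and its second probe set gave -1.88. Kcnj16, which joins Kcnj10 in the basolateral channel of the distal tubule, was at 10.07, 10.57, 10.37 and 10.12 in mutants, against 10.90, 11.01 and 11.07 in wild type. It too fell without overlap (-0.71 ± 0.12, adjusted p = 0.000117). A partner of Kcnj16, Kcnj10, was at 8.47, 8.54, 8.58 and 8.84 in mutants, against 8.26, 8.40 and 8.33 in wild type. Kcnj10 was thus slightly higher on every mutant array but not called (0.27 ± 0.14, adjusted p = 0.115), although it passed with array weights (adjusted p = 0.0265) and in a fit of only these 2 groups (adjusted p = 0.0476). Kcnj11 was at 8.11, 7.99, 7.49 and 7.58 in mutants, against 8.22, 8.56 and 8.36 in wild type (-0.58 ± 0.19, adjusted p = 0.0172). Its groups were adjacent, and the call ended without wild-type replicate 2 or mutant replicate 3 or 4 (-0.51 to -0.48, adjusted p = 0.0502 to 0.0783) and with the actin covariate (adjusted p = 0.0854).

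Kcnj1, the apical channel through which the thick ascending limb and collecting duct secrete potassium, was at 9.88, 10.47, 10.73 and 10.54 in untreated mutants, against 10.32, 10.45 and 10.51 in wild type. The groups overlapped and the gene was not called (-0.02 ± 0.15, adjusted p = 0.903). Its 2 probe sets disagreed in size, since the dimmer one was lower in mutants by -0.89 and the mean of both gave -0.46 with an adjusted p of 0.0172. The pore Kcnj8, just below the median, was not called either (0.36 ± 0.28, adjusted p = 0.287), though a fit of only these 2 groups called it (adjusted p = 0.0354).

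Among the two-pore channels, which carry background current, Kcnk5 was at 7.22, 8.48, 8.00 and 7.52 in untreated mutants, against 8.82, 9.81 and 9.51 in wild type. This channel of the proximal tubule, known for its part in bicarbonate reabsorption, fell without overlap (-1.58 ± 0.27, adjusted p = 0.000186), and its second probe set gave -1.56. Kcnk1 was at 11.13, 10.99, 11.09 and 11.07 in mutants, against 9.71, 10.11 and 10.06 in wild type. It rose on all 4 mutant arrays, which lay close together (1.11 ± 0.15, adjusted p = 1.47e-05). Its close relative Kcnk6, just under the median at 6.49, was at 7.36, 6.86, 7.46 and 7.18 in mutants, against 5.62, 5.54 and 5.60 in wild type (1.63 ± 0.16, adjusted p = 8.07e-07). The 2 relatives thus rose together while Kcnk5 fell. Kcnk16, a two-pore gene next to Kcnk5 on chromosome 14 and measured at the low level of 4.67, was also lower (-0.41). Beside it 24.8% of genes at or below the median were lower. Neighbours of other fallen members were not called, namely Kcnj6 next to Kcnj15 (-0.18) and Kcnj2 next to Kcnj16 (-0.17).

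The sequences before the start sites of Kcnj15 and Kcnk5 are shown because these 2 genes, from different channel families, had the largest falls among the kidney members above the median. They are the 250 bases upstream of the start in mouse build GRCm38.p6 from RefSeq, written 5′ to 3′ on the gene's strand, for chr16:95257308-95257557 (plus strand) and chr14:20181783-20182032 (minus strand).
Kcnj15: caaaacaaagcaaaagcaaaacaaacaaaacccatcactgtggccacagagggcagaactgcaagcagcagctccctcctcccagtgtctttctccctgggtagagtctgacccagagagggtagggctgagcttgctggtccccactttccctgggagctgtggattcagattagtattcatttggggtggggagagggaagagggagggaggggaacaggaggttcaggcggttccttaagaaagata
Kcnk5: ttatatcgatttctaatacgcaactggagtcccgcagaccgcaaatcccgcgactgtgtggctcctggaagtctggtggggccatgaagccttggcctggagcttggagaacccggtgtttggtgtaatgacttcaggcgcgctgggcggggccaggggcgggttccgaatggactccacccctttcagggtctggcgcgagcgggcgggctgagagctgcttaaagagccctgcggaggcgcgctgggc
Neither window has a capital, which would mark a match to 1 of 5 motifs searched on both strands: the forkhead site TGTTTAC, the HNF1 half-site GTTAAT, the AP-1 site TGACTCA, the myogenic E-box CAGCTG and the glucocorticoid receptor half-site AGAACA. Their shares among 32851 such windows of all genes were 3.17%, 6.43%, 4.46%, 13.0% and 16.1% in that order, and among 88 windows of the members 0, 4, 2, 22 and 13 held a match. The GC content was 53.2% in the Kcnj15 window and 62.8% in the Kcnk5 window.

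Kcnq1, the pore of the slow delayed rectifier that is also found in tubule epithelium, was at 9.29, 9.27, 9.30 and 9.29 in untreated mutant kidneys, against 7.45, 7.84 and 7.46 in wild type. The mutant arrays were almost identical and all higher (1.71 ± 0.14, adjusted p = 1.68e-07). Its auxiliary subunit Kcne1 was at 7.87, 8.13, 7.47 and 7.51 in mutants, against 6.77, 6.65 and 6.78 in wild type (1.01 ± 0.21, adjusted p = 0.000754). Both members of the pair rose without overlap, and the second probe set of Kcne1 gave 0.76. The auxiliary subunit Kcne4 was at 6.78, 6.45, 6.80 and 6.83 in mutants, against 6.84, 7.02 and 6.92 in wild type, and was not called (-0.21 ± 0.19, adjusted p = 0.361).

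**Figure D2:**
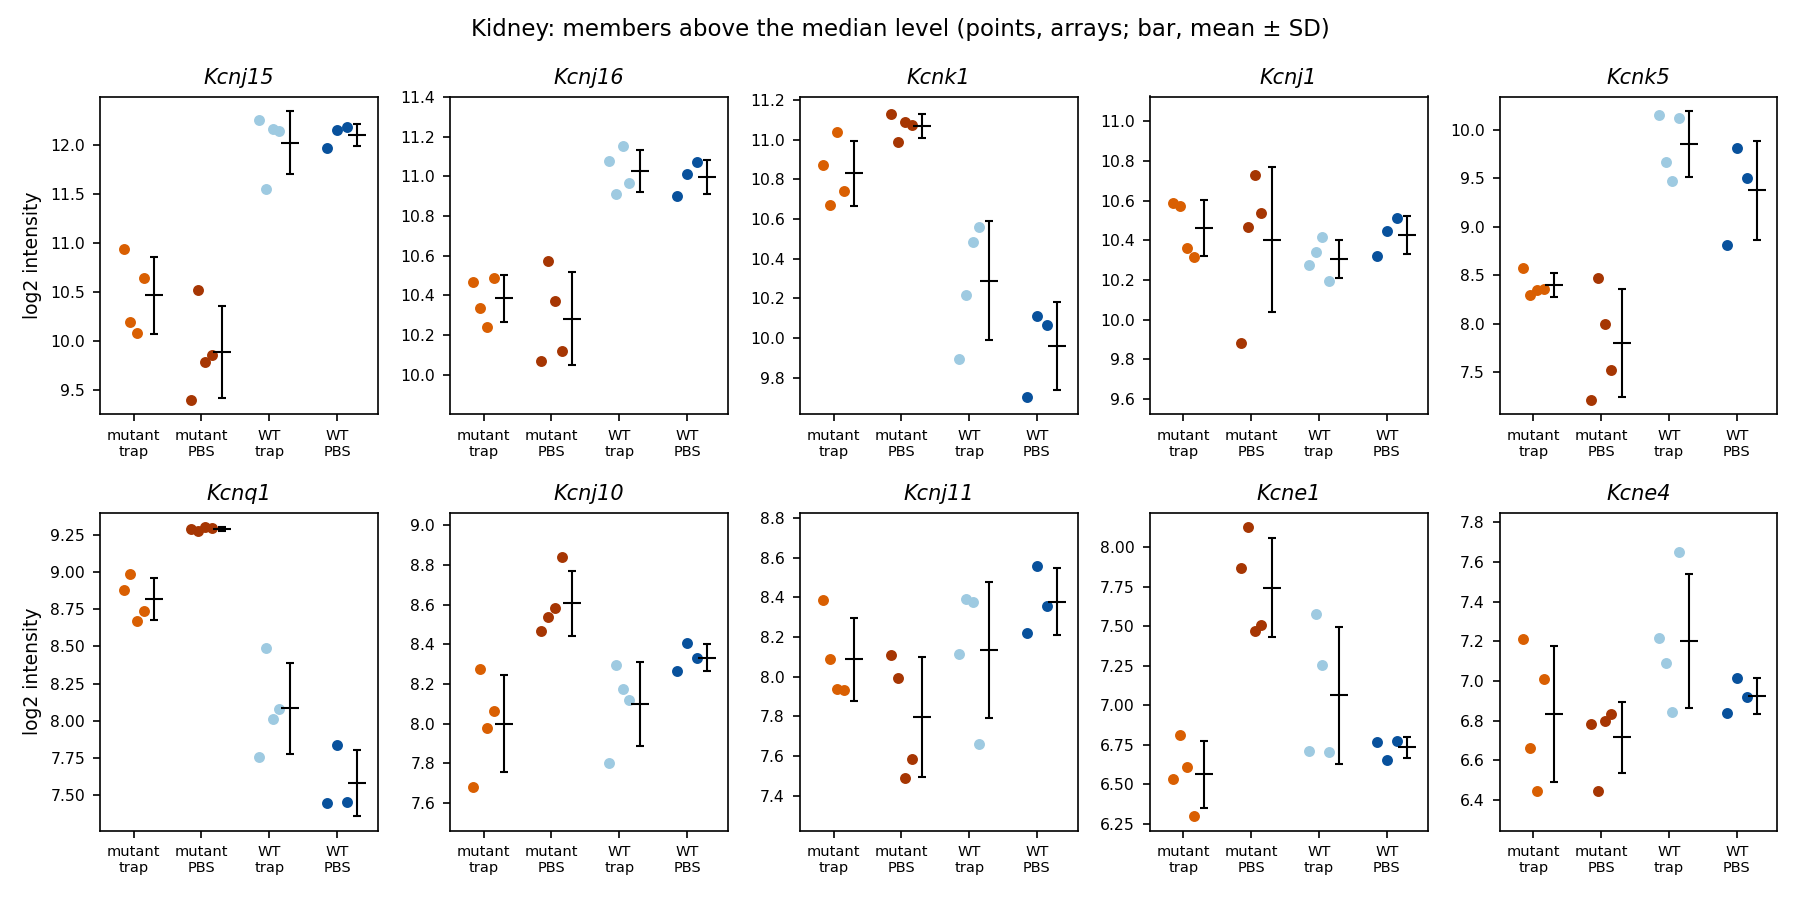
Log2 intensity of the 10 kidney members above the median, 1 point per array, for mutants given the trap, mutants given PBS, wild type given the trap and wild type given PBS, with the mean ± SD beside the points and a vertical axis of its own per gene that does not start at 0. Kcnj15, Kcnj16 and Kcnk5 are lower in both mutant groups, Kcnq1 and Kcnk1 higher in both, and Kcne1 has its highest mean in untreated mutants.

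Of the 73 kidney members at or below the median, 5 rose and 21 fell in untreated mutants, beside 14.4% of such genes higher and 24.8% lower. Kcnc2, a fast voltage-gated pore, was at 6.80, 6.45, 6.39 and 6.67 in mutants, against 4.82, 4.59 and 4.82 in wild type (1.84 ± 0.15, adjusted p = 9.15e-08). Kcnt2, a sodium-activated channel, was at 4.82, 5.84, 5.83 and 5.82 in mutants, against 4.16, 4.13 and 4.40 in wild type (1.35 ± 0.28, adjusted p = 0.000931). In both cases every mutant array was higher, and the remaining rises were those of Kcnh2 and Kcns3, the smallest being 0.41. The other sodium-activated channel, Kcnt1, moved the other way, at 4.60, 4.56, 4.74 and 4.45 in mutants, against 5.48, 5.25 and 5.54 in wild type (-0.84 ± 0.14, adjusted p = 0.000121). Kcnj13, an inward rectifier of transporting epithelia, was at 5.31, 5.12, 5.07 and 5.33 in mutants, against 5.79, 6.09 and 5.92 in wild type (-0.73 ± 0.10, adjusted p = 2.83e-05). Kcnn2, a small-conductance calcium-activated channel, was at 4.07, 4.43, 4.60 and 4.30 in mutants, against 5.50, 5.40 and 5.30 in wild type (-1.05 ± 0.42, adjusted p = 0.0456). Its groups were far apart, but the spread shared over all 4 groups includes 1 high array of 6.62 among mutants given the trap, and the call ended on leaving out any of 11 of the 15 arrays (adjusted p = 0.0512 to 0.109).

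Of channels of interest that stayed near their wild-type level, the large-conductance calcium-activated pore Kcnma1 was measured at -0.05 ± 0.18 (adjusted p = 0.841) and its subunit Kcnmb4 at -0.06 ± 0.11 (adjusted p = 0.676). The sign of both flipped under some alternatives. The intermediate-conductance channel Kcnn4 was at 0.14 (adjusted p = 0.37). Kcna3, a voltage-gated pore of lymphocytes and macrophages, was lower by -0.35 ± 0.12 (adjusted p = 0.0236), a call that ended in 7 of 24 alternatives, 5 of them arrays left out (wild-type replicates 1, 2 and 3 and mutant replicates 1 and 3, -0.36 to -0.31, adjusted p = 0.0523 to 0.0681). By family, over all levels, 0 of 15 inward rectifiers were higher and 5 lower, 2 of 12 two-pore channels were higher and 2 lower, and 4 of 30 voltage-gated pores were higher and 10 lower. Auxiliary subunits had 1 higher and 5 lower of 15. Over all 83 members the counts were 8 and 25, beside 24.9% and 26.7% of all genes.

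Given the trap, mutant kidneys still differed from wild-type kidneys given the trap in 6 of the 10 members, beside 57% of genes above the median, and 5 of the 6 had the direction seen under PBS. Kcnj15 was at 10.94, 10.20, 10.08 and 10.64 in treated mutants, against 12.25, 11.55, 12.16 and 12.14 in treated wild type (-1.56 ± 0.23, adjusted p = 5.12e-05). Kcnk5 was at 8.58, 8.30, 8.35 and 8.36 in treated mutants, against 10.16, 9.67, 9.47 and 10.13 in treated wild type (-1.46 ± 0.25, adjusted p = 0.000233). Neither overlapped, and Kcnj16 was lower as well (-0.64 ± 0.11, adjusted p = 0.000188). Kcnq1 was at 8.88, 8.99, 8.67 and 8.74 in treated mutants, against 7.75, 8.49, 8.01 and 8.08 in treated wild type (0.74 ± 0.13, adjusted p = 0.000359). Kcnk1 rose by 0.54 ± 0.14 (adjusted p = 0.00445). The sixth, Kcne1, had the opposite sign to that under PBS (-0.50 ± 0.19, adjusted p = 0.0432), with overlapping groups, and lost its call in 12 of 25 alternatives. Of these, 8 left out 1 array each (mutants given the trap 1, 3 and 4, wild type given the trap 2 and 3, and all 3 untreated wild type, -0.51 to -0.33, adjusted p = 0.0524 to 0.146). Centring each array on its median moved all genes by 0.11 in this comparison, and all 6 calls held under it.

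**Figure D3:**
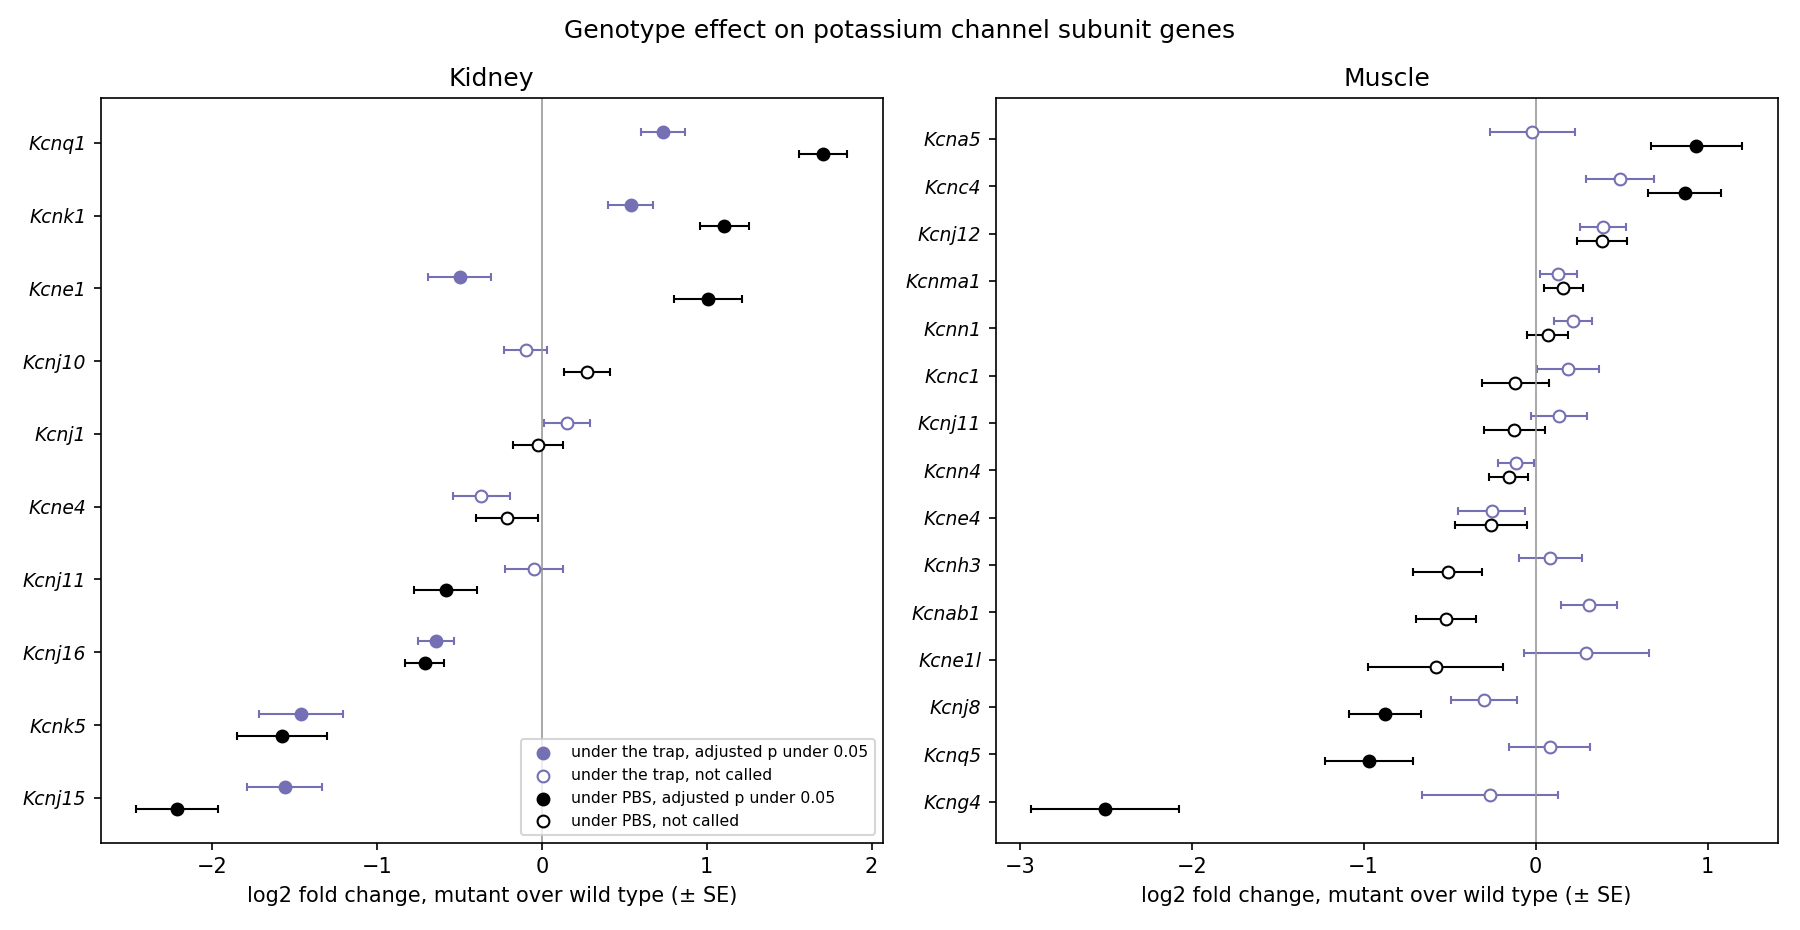
Log2 fold change of mutant over wild type (horizontal axis, ± standard error) for the 10 kidney members (left) and the 15 muscle members (right) above the median, under the trap (purple) and under PBS (black), with filled points for adjusted p under 0.05. In kidney 6 members are called under the trap and 7 under PBS, and in muscle 0 under the trap and 5 under PBS.

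Within mutants, the trap lowered 2 of the 10 kidney members, Kcne1 and Kcnj10, beside 3.26% of genes above the median. Kcne1 was at 6.53, 6.81, 6.61 and 6.30 in mutants given the trap, against 7.87, 8.13, 7.47 and 7.51 in mutants given PBS. The groups lay far apart (-1.18 ± 0.19, adjusted p = 0.00458), and its second probe set gave -0.91. The 18S control signal was 13.26 to 13.68 in treated and 13.59 to 14.04 in untreated mutant kidneys, and with it as a covariate the Kcne1 change was -0.80 with an adjusted p of 0.0511. Kcnj10 was at 7.68, 8.28, 7.98 and 8.06 in treated mutants, against 8.47, 8.54, 8.58 and 8.84 in untreated mutants (-0.61 ± 0.13, adjusted p = 0.0234). Its groups did not overlap, but the call ended without treated replicate 1 or 3 or untreated replicate 4 (-0.60 to -0.50, adjusted p = 0.0507 to 0.0883) and in a fit of only these 2 groups (adjusted p = 0.0658). Kcnq1 was also lower on each treated array, without being called (-0.47 ± 0.13, adjusted p = 0.0809). Kcnj15 and Kcnk5, the largest falls, were higher in treated mutants by 0.57 ± 0.23 (adjusted p = 0.229) and 0.59 ± 0.25 (adjusted p = 0.271), without being called.

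Below the median the trap changed 2 further members in mutant kidneys, beside 1.54% of such genes. Kcnc2 was at 5.67, 5.94, 5.84 and 6.01 in treated mutants, against 6.80, 6.45, 6.39 and 6.67 in untreated mutants (-0.71 ± 0.14, adjusted p = 0.0121). The auxiliary subunit Kcne3 was at 3.64, 3.38, 3.98 and 3.71 in treated mutants, against 2.99, 2.88, 2.93 and 2.69 in untreated mutants (0.81 ± 0.11, adjusted p = 0.0014). All of its signals were far under the median of all genes. In wild-type kidneys the trap called 0 of the 10 members with limma, beside 0.889% of genes above the median. There 2 members had an unadjusted p under 0.05, and the lowest adjusted p was 0.13 for Kcnq1.

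The trap's effect differed between mutants and wild type for 2 of the 10 kidney members, beside 1.82% of genes above the median. The interaction of Kcne1 was -1.51 ± 0.28 (adjusted p = 0.0187), from a change of -1.18 in mutants and 0.33 ± 0.21 in wild type. That of Kcnq1 was -0.97 ± 0.20 (adjusted p = 0.0237), from -0.47 in mutants and 0.50 ± 0.14 in wild type. Both subunits of the slow delayed rectifier pair thus moved down with the trap in mutants relative to wild type. The Kcnq1 interaction lost its call on leaving out any of 5 arrays (untreated wild type 1 and 3, untreated mutant 4, treated mutants 3 and 4), with -0.97 to -0.91 and adjusted p = 0.0507 to 0.0856. Below the median the interaction was also called for Kcnc2 (-0.90 ± 0.20, adjusted p = 0.0371) and Kcne3 (0.84 ± 0.16, adjusted p = 0.02), beside 0.945% of such genes.

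Other transport genes of the tubule were taken from a list drawn up with earlier results of these data known. Of 23 measured, 12 were higher and 7 lower in untreated mutant kidneys, where 24.9% of all genes were higher and 26.7% lower. Among genes above the median these shares were 35.4% and 28.7%. Of those with the largest changes, the sodium channel subunits Scnn1b (2.25 ± 0.18, adjusted p = 9.34e-08) and Scnn1g (1.94 ± 0.12, adjusted p = 8.44e-09) rose with the sodium pump regulator Fxyd4 (2.07 ± 0.22), while the thiazide-sensitive cotransporter Slc12a3 fell (-2.98 ± 0.19, adjusted p = 1.21e-08). With the trap in mutants 1 was higher and 4 lower, where 2.4% of all genes were called, including Slc12a3 at 1.47 ± 0.18 (adjusted p = 0.000562) and Scnn1a at -1.09 ± 0.15 (adjusted p = 0.00148). Of 10 measured partners of potassium channels, or related channels, without a Kcn symbol, 1 was higher and 3 were lower in untreated mutants. Beside them 51.6% of all genes, and 39.2% of those at or below the median, were called. The summed linear signal of these 10 was low, at 463.0 to 501.6 in untreated mutants and 477.8 to 533.7 in untreated wild type. The higher one was Lrrc26, an auxiliary subunit of the Kcnma1 channel (1.39 ± 0.11, adjusted p = 8.68e-08), and the lower ones were Lrrc52, Amigo1 and Dpp10 (-0.79, -0.66 and -0.26). Lrrc26 was lower with the trap in mutants (-0.68 ± 0.10, adjusted p = 0.00264), and its interaction was -0.83 ± 0.15 (adjusted p = 0.0154).

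In muscle of untreated mutants, 5 of the 15 members above the median were called, beside 24.9% of genes above the median (12.2% higher and 12.7% lower). Kcna5 and Kcnc4, both voltage-gated pores, rose by 0.93 and 0.87, while the silent subunit Kcng4 (-2.50), Kcnq5 (-0.97) and Kcnj8 (-0.87) fell. The arrays did not overlap for 6 of the 15, beside 33% of genes above the median. The 18S signal also separated these groups, at 13.36 to 13.75 in untreated mutant muscle, against 13.84 to 13.87 in untreated wild-type muscle, as did the 3′ minus 5′ actin signal (-0.06 to 0.14 against 0.16 to 0.18). With 18S as a covariate 1 of the 5 calls held, that of Kcnj8, and with the actin signal 2 did, those of Kcnj8 and Kcng4. Fibroblast and pericyte markers were lower in the same muscles (6 of 9, summed signal 8289 to 11711 against 24538 to 25212), where 9.04% of all genes were lower. Of macrophage markers 3 of 9 were lower, but their summed signals overlapped (1197 to 3694 against 2329 to 3073). Lower too were 1 of 6 endothelial markers and 1 of 5 Schwann cell and nerve markers, too few to read as a shift. Of 6 slow fibre markers 2 were higher, beside 6.93% of all genes. The part of these shifts was not tested.

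Kcng4, which forms no channel of its own and modifies other voltage-gated pores, was at 4.89, 6.80, 5.26 and 5.52 in untreated mutant muscle, against 7.67, 8.58 and 8.11 in wild type. All 4 mutant arrays were lower (-2.50 ± 0.43, adjusted p = 0.00112), and with 18S as a covariate the change was -2.11 with an adjusted p of 0.11. Kcnq5 was at 6.15, 6.58, 7.20 and 6.61 in mutants, against 7.32, 7.40 and 8.10 in wild type (-0.97 ± 0.26, adjusted p = 0.0168). Its groups lay close to each other, and the call ended without mutant replicate 1 or wild-type replicate 3 (-0.81 to -0.72, adjusted p = 0.0508 to 0.0943), with array weights (-0.61, adjusted p = 0.105) and with either covariate (adjusted p = 0.116 with 18S and 0.0825 with actin). Kcnj8, an ATP-gated pore of vascular smooth muscle, was at 7.46, 7.41, 8.11 and 8.03 in mutants, against 8.84, 8.60 and 8.43 in wild type. It fell without overlap (-0.87 ± 0.21, adjusted p = 0.00992) and kept its call in all 25 alternatives, at -1.36 with 18S as a covariate.

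The stretch before the start site of Kcng4 is shown because this gene had the largest change of any member in either tissue. It lies at chr8:119635681-119635930 (GRCm38.p6, minus strand, RefSeq), and the capitals mark a match to the myogenic E-box, which begins 130 bases before the start.
Kcng4: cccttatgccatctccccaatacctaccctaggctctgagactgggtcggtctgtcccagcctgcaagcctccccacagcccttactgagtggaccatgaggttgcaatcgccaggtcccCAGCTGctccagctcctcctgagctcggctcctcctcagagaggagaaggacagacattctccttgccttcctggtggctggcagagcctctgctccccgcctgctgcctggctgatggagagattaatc
A match to these letters is a description of the window, held by 13.0% of windows of all genes, and shows no binding.

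Of the 2 rises, Kcnc4 was at 9.76, 9.70, 9.83 and 10.06 in untreated mutant muscle, against 9.10, 8.72 and 9.09 in wild type. This fast pore, which repolarises muscle fibres, was higher on every mutant array (0.87 ± 0.21, adjusted p = 0.0116), and its second probe set gave 0.42. The call ended without wild-type replicate 2 (0.74, adjusted p = 0.07) and with either covariate (0.62, adjusted p = 0.393 with 18S, and 0.78, adjusted p = 0.0689 with actin). Kcna5, a delayed rectifier, was at 7.93, 7.79, 7.63 and 8.03 in mutants, against 6.67, 7.12 and 6.94 in wild type (0.93 ± 0.27, adjusted p = 0.0249). The groups lay apart, yet the call ended without mutant replicate 1 or 4 or wild-type replicate 1 or 3 (0.81 to 0.95, adjusted p = 0.0557 to 0.0969) and with either covariate (0.75, adjusted p = 0.426 with 18S, and 0.99, adjusted p = 0.0667 with actin).

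The inward rectifiers that set the resting potential were not called in untreated mutant muscle. Kcnj12 was at 9.04, 9.58, 9.46 and 9.64 in mutants, against 9.02, 8.82 and 9.30 in wild type (0.39 ± 0.15, adjusted p = 0.0851). It passed in 5 of 25 alternatives, among them leaving out mutant replicate 1 (0.52, adjusted p = 0.015) or wild-type replicate 3 (0.51, adjusted p = 0.0458). Its relative Kcnj2, below the median at 4.11, was measured at 0.12 ± 0.14 (adjusted p = 0.632). Kcnj11, the ATP-gated pore of muscle fibres, was at 9.09, 9.08, 8.76 and 8.78 in mutants, against 8.99, 9.11 and 9.05 in wild type (-0.13 ± 0.18, adjusted p = 0.706). Nor were Kcnc1 (-0.12 ± 0.19, adjusted p = 0.745) and Kcnma1 (0.16 ± 0.12, adjusted p = 0.392) called, and the small differences of Kcnj11, Kcnc1 and Kcnma1 changed sign under some alternatives. Kcnn3, a small-conductance channel known to reappear in denervated muscle, was higher on every mutant array by 0.23 ± 0.11 without being called (adjusted p = 0.203). The others above the median that were not called were Kcnab1 (-0.52 ± 0.17, adjusted p = 0.053, no overlap), Kcnh3, Kcne1l, Kcne4, Kcnn1 and Kcnn4. Kcna7 is not analysed here.

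**Figure D4:**
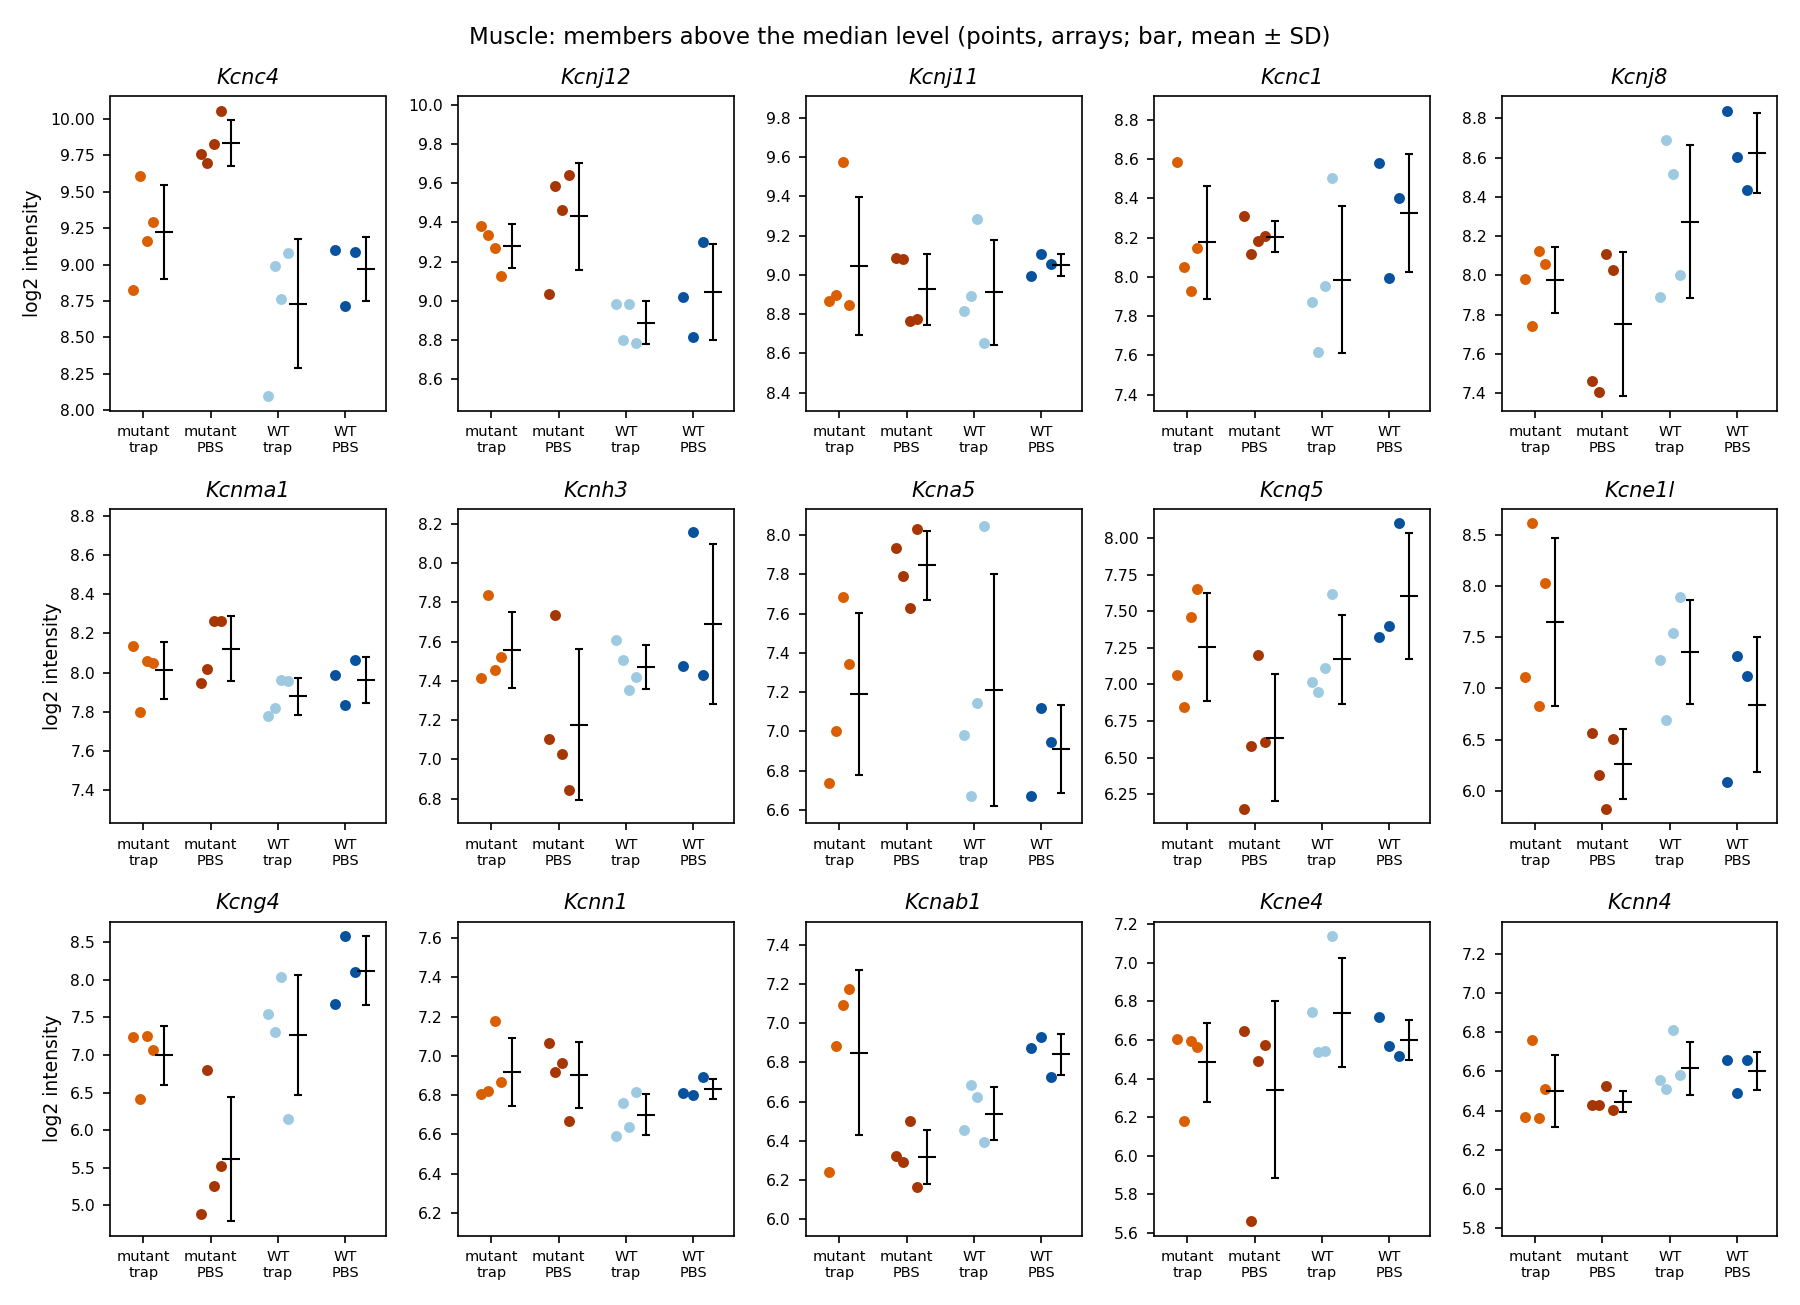
Log2 intensity of the 15 muscle members above the median, 1 point per array, for mutants given the trap, mutants given PBS, wild type given the trap and wild type given PBS, with the mean ± SD beside the points and a vertical axis of its own per gene that does not start at 0. Untreated mutants stand apart from untreated wild type for Kcng4, Kcnj8, Kcnq5, Kcna5 and Kcnc4, and Kcne1l is higher in mutants given the trap than in mutants given PBS.

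Over all 83 members, 3 rose and 7 fell in untreated mutant muscle, beside 6.93% and 9.04% of all genes. Below the median the rise was that of Kcnq1ot1, the noncoding antisense RNA of the Kcnq1 locus, at 7.46, 6.48, 6.73 and 7.49 in mutants, against 6.15, 6.10 and 6.22 in wild type (0.88 ± 0.23, adjusted p = 0.0154). Its call ended without wild-type replicate 2 (0.86, adjusted p = 0.0615) and in 3 other alternatives, where the lowest value was 0.25 with 18S as a covariate (adjusted p = 0.751). Kcnt2 was at 2.76, 2.95, 2.61 and 2.98 in mutants, against 3.82, 3.62 and 3.75 in wild type (-0.90 ± 0.15, adjusted p = 0.000844). Both genes' groups lay apart, though Kcnt2 was dim on every muscle array, and it fell in muscle while it rose in kidney. Kcnh2, a voltage-gated pore, fell by 0.74 ± 0.19 (adjusted p = 0.0133), a call that ended without wild-type replicate 2 (-0.70, adjusted p = 0.0602) and with 18S (-0.29, adjusted p = 0.65). Kcnd1 and Kcne3 were lower by -0.55 (adjusted p = 0.0449) and -0.42 (adjusted p = 0.0279), calls that ended in 18 and 8 of 24 alternatives. Without wild-type replicate 2 the changes were -0.28 for Kcnd1 and -0.27 for Kcne3, and the mean of probe sets gave -0.10 for Kcnd1. Of these, arrays left out were 10 for Kcnd1 (adjusted p = 0.0523 to 0.257) and 4 for Kcne3 (untreated mutants 2, 3 and 4 and wild-type replicate 2, adjusted p = 0.0513 to 0.162).

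**Figure D5:**
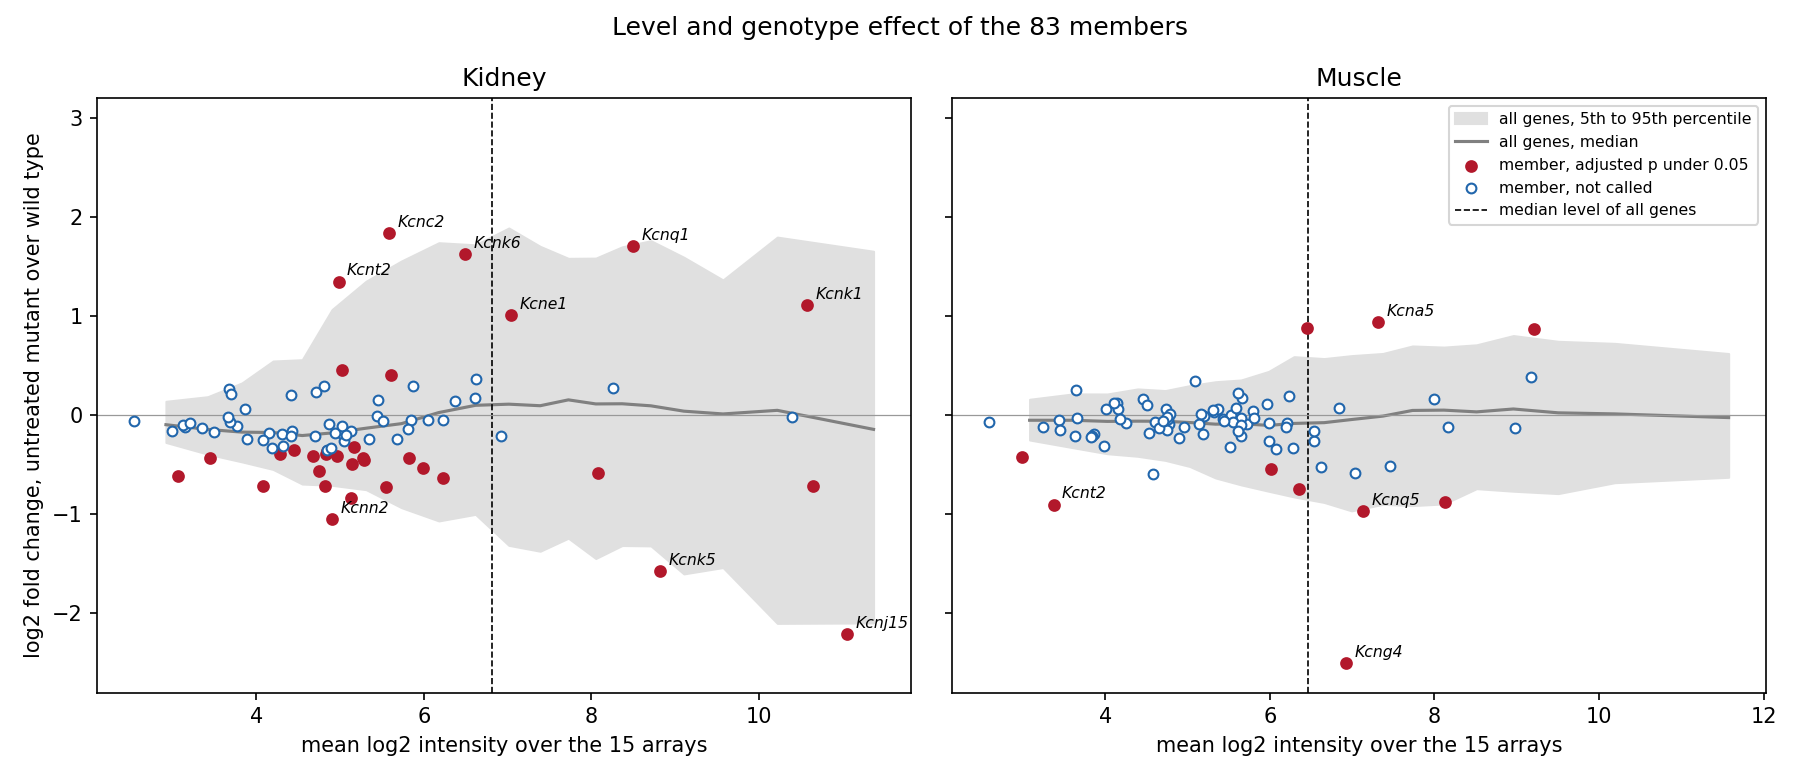
Mean log2 intensity over the 15 arrays (horizontal axis) against the log2 fold change of untreated mutant over untreated wild type (vertical axis) for the 83 members in kidney (left) and muscle (right). Red points passed an adjusted p of 0.05, the grey band spans the 5th to 95th percentile of all genes at each level, and the dashed line is the median level, with Kcnj15 at the lower edge of the band in kidney and Kcng4 far below it in muscle.

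Under the trap, 0 of the 15 muscle members differed between mutants and wild type with limma, beside 2.18% of genes above the median. An unadjusted p under 0.05 was reached by 2 of them, and the lowest adjusted p was 0.19 for Kcnj12. Kcng4 was at 7.25, 6.42, 7.26 and 7.07 in treated mutants, against 7.55, 7.31, 8.03 and 6.15 in treated wild type, so its groups overlapped (-0.27 ± 0.40, adjusted p = 0.857). For Kcnq5 and Kcna5 the difference was 0.08 ± 0.24 and -0.02 ± 0.25. Below the median Kcnf1, another silent subunit, was at 5.99, 6.62, 6.23 and 6.14 in treated mutants, against 5.52, 5.65, 5.66 and 5.55 in treated wild type (0.65 ± 0.16, adjusted p = 0.0478). The interaction was called for 0 of the 15 members, beside 0.214% of genes above the median, with 5 at an unadjusted p under 0.05. For Kcng4 it was 2.24 ± 0.58 (adjusted p = 0.122), and array weights called 2 of the 15.

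Within mutants, the trap raised 1 of the 15 muscle members, Kcne1l, beside 10.1% of genes above the median. This auxiliary subunit was at 7.11, 8.62, 6.83 and 8.03 in mutants given the trap, against 6.57, 6.15, 5.82 and 6.50 in mutants given PBS (1.39 ± 0.36, adjusted p = 0.0336). The treated arrays were higher but widely spread, and the call ended in 8 of 25 alternatives, 5 of them arrays left out (treated 2 and 4, untreated 1, 3 and 4, 1.06 to 1.49, adjusted p = 0.0532 to 0.0937). Kcng4 was higher by 1.38 ± 0.40, just short of the threshold (adjusted p = 0.0503). The 18S signal was 13.74 to 13.91 in these treated mutants, overlapping the untreated mutants slightly at its lower end, and with it as a covariate 0 members were called. Below the median, where 2.55% of genes were called, Kcnq1ot1 fell (-0.80 ± 0.21, adjusted p = 0.0343), Kcna1 fell (-0.53 ± 0.15, adjusted p = 0.0482) and Kcnf1 rose (0.57 ± 0.16, adjusted p = 0.0437). In wild-type muscle the trap called 0 of the 15 members, beside 0.0675% of genes above the median, with 0 at an unadjusted p under 0.05 and a lowest adjusted p of 0.452.

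In untreated mutant muscle 6.93% of all genes were higher and 9.04% lower. Other genes of muscle excitability from a list, such as sodium and chloride channels and pumps, had 0 of 12 called there with limma, with 6 at an unadjusted p under 0.05. Of 10 channel partners 0 were called, with 2 at an unadjusted p under 0.05. Of 9 genes known to respond to denervation, 3 were higher, namely Musk (0.89 ± 0.15, adjusted p = 0.00117), Chrna1 (0.86 ± 0.26, adjusted p = 0.0366) and Gadd45a (0.66 ± 0.15, adjusted p = 0.00801). With the trap in mutants, where 6.33% of all genes were called, 2 of the 12 excitability genes fell, the cotransporter Slc12a2 (-0.81 ± 0.19, adjusted p = 0.0215) and the calcium channel subunit Cacng1 (-0.48 ± 0.14, adjusted p = 0.0475).

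The genotype effect under PBS differed between the tissues for 11 of the 23 members above the median in a tissue, beside 48% of such genes (25% higher and 23% lower). It was higher in kidney than in muscle for Kcng4 (2.19 ± 0.47, adjusted p = 0.000407), Kcnq1 (1.97 ± 0.22, adjusted p = 5.89e-08), Kcnk1 (1.43 ± 0.35), Kcnj8 (1.24 ± 0.35) and Kcne1 (0.85 ± 0.29). It was lower in kidney for Kcnj15 (-1.86 ± 0.28, adjusted p = 5.79e-06), Kcnk5 (-1.55 ± 0.36), Kcna5 (-1.29 ± 0.32), Kcnc4 (-1.29 ± 0.23), Kcnj16 (-1.14 ± 0.34) and Kcnj12 (-1.10 ± 0.19). All 11 lay above the median in only 1 of the tissues. Each difference thus sets a brighter signal in 1 tissue against a dimmer one in the other. Such dim signals were Kcnj15 at 3.96 and Kcnk5 at 4.76 in muscle. In kidney they were Kcng4 at 4.32, Kcnj12 at 4.82, Kcna5 at 4.85 and Kcnc4 at 5.14. The change need not lie in the brighter tissue. Kcnj12 was not called in muscle (0.39, adjusted p = 0.0851 with limma), while its dim kidney signal was called lower. For Kcnj11, above the median in both tissues, the difference was -0.46 ± 0.26 (adjusted p = 0.169), and for Kcne4, the other such member, 0.05 ± 0.28 (adjusted p = 0.914).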

How the data were processed

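Per the labels' protocols, RNA extracted with QIAZOL from snap-frozen tissue was biotin-labelled and read on Affymetrix mouse gene chips. The authors deposited log2 intensities that they had already normalized, with 1 value for each probe set on each array. Their way of normalizing is not stated in the labels used. No further scaling or filter was applied. Of 35088 probe sets, 31563 had 1 gene symbol, 825 several and 2700 none listed, which gave 17782 genes. Of those with 1 symbol, 111 had no RefSeq match and kept their symbol. A gene was taken by its probe set of highest mean over the 15 arrays of a tissue, or over all 30 arrays for comparisons of tissues.

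Each tissue was fitted with limma 3.58.1 in R 4.3.3, with 1 mean per group and Benjamini-Hochberg adjustment over all genes. Both tissues were fitted together with the animal, taken from the sample titles, as a random block (consensus correlation 0.0749). The p-values measure the spread between animals, and the number of arrays limits precision. The fit was tested on simulated data.

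Named genes were the called members above the tissue median, the 3 largest called changes in each direction below it, the 5 largest called in other comparisons and a list of channels known in each tissue. Members and lists were chosen with earlier results of these data known, and other genes were named after their values were seen. Replicate numbers did not pair the groups. Plots used matplotlib 3.10.9 (Python 3.11.15).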

Additional observations from a re-analysis of the deposited data

Results flagged for a closer look

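In 8 of 111 groups of 4 arrays checked, 1 array stood far from the other 3, where chance gives about 1 in 20. In kidney these were Kcnj15 in wild type given the trap, replicate 2, at 11.55 with the others at 12.14 to 12.25, and in mutants given the trap Kcnj8, replicate 2, at 5.88 with the others at 6.94 to 6.96, Kcnn2, replicate 2, at 6.62 with the others at 4.23 to 4.38, and Kcnt1, replicate 1, at 5.17 with the others at 4.71 to 4.79. Kcnt2 in untreated mutants, replicate 1, was at 4.82 with the others at 5.82 to 5.84. In muscle they were Kcnd1 in untreated mutants, replicate 4, at 5.55 with the others at 5.94 to 5.96, and in mutants given the trap Kcnj11, replicate 3, at 9.57 with the others at 8.84 to 8.90, and Kcnj2, replicate 1, at 3.86 with the others at 4.17 to 4.22. Kidney replicate 2 of the mutants given the trap was the odd array for both Kcnj8 and Kcnn2.

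Tests of the difference itself set apart 4 kidney members whose response to the trap differed between mutants and wild type. These were Kcnc2 at -0.90, Kcne1 at -1.51, Kcne3 at 0.84 and Kcnq1 at -0.97, with adjusted p values from limma of 0.0371, 0.0187, 0.02 and 0.0237 in that order. Of all genes above the median, where Kcne1 and Kcnq1 lie, 1.82% were called for this interaction, and of those at or below it 0.945%. The untreated genotype effect, kidney minus muscle, differed for 11 of the 23 members above the median in a tissue. Beside them 48% of such genes were called, so the share of members was close to the background. Each of the 11 was above the median in only 1 of the tissues: Kcna5 (-1.29), Kcnc4 (-1.29), Kcne1 (0.85), Kcng4 (2.19), Kcnj12 (-1.10), Kcnj15 (-1.86), Kcnj16 (-1.14), Kcnj8 (1.24), Kcnk1 (1.43), Kcnk5 (-1.55) and Kcnq1 (1.97).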

How the results depend on the processing

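Counts of members called are those above the tissue median. In kidney, the count for genotype under PBS (7) ranged over 6 to 8 and that under the trap (6) over 5 to 7, and that for the tissue difference of the genotype effect (11) over 10 to 13. Leaving out each array in turn gave 1 to 3 for the trap in kidney mutants (2), 0 to 1 in kidney wild type (0), 1 to 3 for the kidney interaction (2), 4 to 6 for genotype under PBS in muscle (5), 0 to 1 under the trap (0), 0 to 3 for the trap in muscle mutants (1) and 0 to 1 for the muscle interaction (0). With the 18S covariate the counts were 1 for the trap in kidney mutants, 1 for genotype under PBS in muscle and 0 for the trap in muscle mutants. With the actin covariate those in muscle were 3 and 0. Array weights gave 1 for the trap in kidney wild type, 3 for the trap in muscle mutants and 2 for the muscle interaction. For the trap in muscle mutants, only genes above the median gave 3, a trended prior variance 2 and only the compared groups 0. The cause was not tested. Replicate numbers did not pair the groups, since same-numbered arrays deviated together (correlation over 0.1) in 4 of 21 kidney pairs and 6 of 21 muscle pairs, and with the replicate block the trap in muscle mutants had 2 calls. The sign of uncalled kidney genotype changes under PBS turned for Kcnj1 (0.024 with array weights, 0.082 with actin, -0.13 to 0.15 with arrays left out), Kcnma1 (0.010 with the mean of probe sets, 0.034 with the replicate block, 0.088 with actin, -0.19 to 0.077 with arrays left out) and Kcnmb4 (0.0088 with actin). In muscle it turned for Kcnj11 (0.082 with 18S), Kcnma1 (-0.049 with 18S) and Kcnc1 (-0.29 to 0.0085 with arrays left out).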
